A study of Mus musculus with 6 samples.

Results

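The genes described here are interferon-stimulated genes, 3 interferon receptor chains, and the sensors and transcription factors of the same pathway, measured in cells sorted from mouse cortex. They were selected by symbol from a list of 36 genes, and each gene was read from 1 probe set. Among the probe sets annotated with exactly 1 symbol, the one of highest average over all 6 arrays was used. Of the 36 genes, 34 were measured this way, among 18193 genes in all. The only probe set of Isg15 carried several symbols and Ifi44 had none in the annotation used here, so neither has a value below. The reactive cells were green fluorescent cells of FVB/N mice carrying TgN(hGFAP-EGFP) GFEA, whose reporter is under a human GFAP promoter (3 arrays). They were collected on day 5 after a stab wound, 0.7 mm in depth, to the grey matter of the somatosensory cortex. The non-reactive cells came from the matching region of uninjured FVB/N mice carrying Tg(Aldh1l1-eGFP)OFC789Gsat (3 arrays). Mice of both groups were 2 to 3 months old, their sex was not determined, and each array was made from a pool of about 15 animals. The protocol also describes BrdU labelling and does not say whether the animals of these arrays received it. Injury and reporter line coincided in every array, so their parts in any difference cannot be told apart.

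Interferons are secreted when cells sense foreign or misplaced nucleic acid. Type I interferons bind a receptor built from Ifnar1 and Ifnar2 and activate a complex that includes Stat2 and Irf9 and binds a DNA element in the promoters of the stimulated genes. Interferon gamma binds Ifngr1 and Ifngr2 and acts mainly through another element. In the brain, astrocytes and microglia both respond to interferons, and several of these genes are also transcribed without interferon in microglia, blood leukocytes and vessel cells.

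The clearest differences lay in 3 genes. Ifitm3, which keeps viruses from fusing with endosomal membranes, was 38.9-fold higher in the reactive arrays. Ifi27l2a, a small interferon-inducible membrane protein, was 16.9-fold higher, and Oas1a, a synthetase that senses double-stranded RNA, was 4.91-fold higher. No receptor, Mx GTPase or transcription factor passed the test, and no measured member fell. In all, 3 of 34 members rose (8.82%), against a background of 0.39% of all genes, in limma's test adjusted by Benjamini-Hochberg over all probe sets with a threshold of 0.05. Called in either direction were 3 of 34, against 0.951%. These calls were close to the threshold. The count of members that rose was 1 with eBayes robust and 0 to 1 when any 1 array was left out, with Ifi27l2a alone passing without reactive replicate 3. None of the 34 fell, against a background of 0.561%, and 0 members were lower at an unadjusted p under 0.05 (background 7.13%). At an unadjusted p under 0.05, 13 members were higher (38.2%, background 7.88%). In 12 members every reactive array lay above every non-reactive array (35.3%, background 13.5%), and in 0 members every reactive array lay below (background 8.2%). Of the members 12 had a log2 fold change above 1, against 5.65% of all genes, and 0 one below -1, against 6.61%. The median log2 fold change was 0.67 over the 34 members and 0.12 over all genes, and 28 members (82.4%) lay above 0, against 60.7% of all genes. The members were chosen with earlier results of these data known, so these shares describe the list and are not an independent test.

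**Figure D1:**
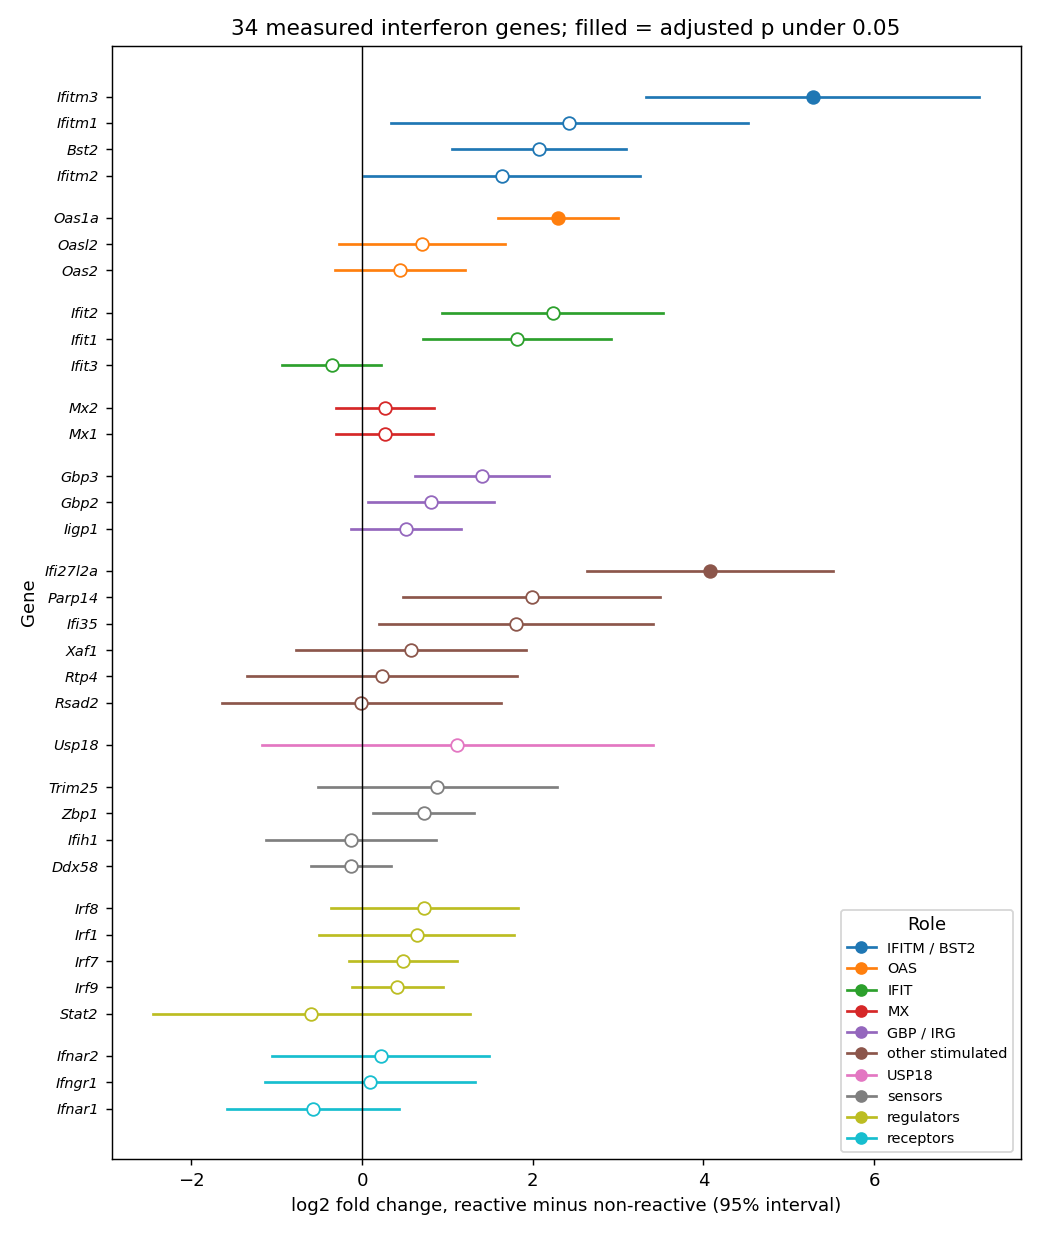
Log2 fold change (reactive minus non-reactive, x axis) of each of the 34 measured members with its 95% interval, grouped and coloured by role; filled points passed the adjusted threshold. Ifitm3 at 5.28, Ifi27l2a at 4.08 and Oas1a at 2.30 are filled, while the intervals of the receptors and Mx genes include 0.

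Promoter windows from RefSeq (GRCm38.p6, 250 bases before to 50 after an annotated start) were found for 27 of the 36 genes. They were searched on both strands for the core of the interferon-stimulated response element, which is GAAA, any 2 bases and GAAA again (TTTC in place of GAAA on the other strand), with overlapping matches counted separately. It occurred in the windows of 13 of these 27 genes (48.1%), against 3.99% of 27025 genes and 3.44% of 32851 windows. The gamma-activated site TTCNNNGAA occurred for 9 of the 27 genes (33.3%), against 9.55% of all genes and 8.3% of all windows. The following windows belong to 2 of the genes that rose, and capitals mark the response element core. The Ifitm3 window lies at chr7:141010695-141010994 on the minus strand and holds 2 cores, with a gamma-activated site that shares bases with a core. The Oas1a window lies at chr5:120907476-120907775 on the minus strand and holds 2 overlapping cores and a separate gamma-activated site. Both are written 5′ to 3′ along the gene.
Ifitm3: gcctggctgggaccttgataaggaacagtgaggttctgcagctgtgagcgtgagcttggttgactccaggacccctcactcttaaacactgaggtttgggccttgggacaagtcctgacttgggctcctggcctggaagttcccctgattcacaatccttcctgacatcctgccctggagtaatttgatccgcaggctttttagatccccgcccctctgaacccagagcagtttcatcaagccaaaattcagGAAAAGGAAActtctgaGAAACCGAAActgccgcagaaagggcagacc
Oas1a: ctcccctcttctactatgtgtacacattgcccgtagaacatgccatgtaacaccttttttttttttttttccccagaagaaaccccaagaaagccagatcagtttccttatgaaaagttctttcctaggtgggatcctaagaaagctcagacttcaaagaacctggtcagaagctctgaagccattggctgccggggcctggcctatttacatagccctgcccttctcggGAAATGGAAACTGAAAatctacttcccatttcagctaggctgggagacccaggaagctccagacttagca

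Shorter stretches show the same core, with 10 bases on each side, in promoters of genes that differed in their measured change. Ifitm2 (chr7:140955988-140956017, minus strand) and Bst2 (chr8:71537577-71537612, minus strand) had higher means in the reactive arrays, as had Gbp3 (chr3:142559989-142560024, plus strand) and Ifit1 (chr19:34640775-34640823, plus strand). Ifit3 (chr19:34583363-34583426, plus strand) and Rsad2 (chr12:26456553-26456582, minus strand) did not. Each stretch reads 5′ to 3′ along the gene, and capitals mark the core.
Ifitm2: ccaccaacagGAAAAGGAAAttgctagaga
Bst2: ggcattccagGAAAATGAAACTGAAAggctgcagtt
Gbp3: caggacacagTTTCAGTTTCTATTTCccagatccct
Ifit1: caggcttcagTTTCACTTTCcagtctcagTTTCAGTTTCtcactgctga
Ifit3: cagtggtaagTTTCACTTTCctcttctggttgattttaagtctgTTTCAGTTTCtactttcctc
Rsad2: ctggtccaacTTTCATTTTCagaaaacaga
Among measured members with a window, the 12 that held a core had a median log2 fold change of 1.11, from -0.60 to 5.28, and 2 of them rose. The 13 without one had a median of 0.64, from -0.58 to 2.43, and 0 of them rose. Ifi27l2a, which rose, had no window in the table and is in neither set. The ranges of these sets overlapped, and the core was present in genes that rose and in genes whose difference did not pass. A match to these letters is a description of the sequence and not evidence of a bound site.

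Ifitm1, Ifitm2 and Ifitm3 encode interferon-induced transmembrane proteins and neighbour each other on chromosome 7. Ifitm3 measured 9.98, 9.83 and 11.19 in the reactive arrays of replicates 1, 2 and 3, against 6.76, 4.84 and 3.54 in the non-reactive arrays (log2). Its groups stood far apart, and its non-reactive arrays spread more than its reactive ones. The non-reactive mean of 5.05 lay near the median of the probe set means (4.74), and non-reactive replicate 3 was under that median. Its log2 fold change was 5.28 (SE 0.82, 95% interval 3.33 to 7.23, n = 3 arrays a group, limma adjusted p = 0.0497). The size depended on single controls: it was 6.14 without non-reactive replicate 1 and 4.53 without non-reactive replicate 3, and neither passed. Ifitm1 measured 7.29, 4.86 and 8.65 in the reactive arrays, against 4.40, 4.63 and 4.49 in the non-reactive arrays, so that reactive replicate 2 barely cleared the control range while the others lay well above it. Its log2 difference of 2.43 (SE 0.88) did not pass (adjusted p = 0.315). Ifitm2 measured 5.62, 6.42 and 7.95 in the reactive arrays, against 5.95, 4.86 and 4.24 in the non-reactive arrays. These groups overlapped, and the log2 difference of 1.64 (SE 0.68) did not pass (adjusted p = 0.371). All 3 genes were highest on reactive replicate 3.

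Other Ifitm genes were measured outside the list of members. Ifitm6, the next coding gene beyond Ifitm3, differed by 0.60 (SE 0.45) on the log2 scale, Ifitm10 by 0.73 (SE 0.34) and Ifitm7, on chromosome 16, by 0.13 (SE 0.21). None of them passed. Bst2 encodes tetherin, which holds budding virus particles at the cell surface. It measured 6.55, 7.38 and 8.14 in the reactive arrays, against 4.99, 5.69 and 5.19 in the non-reactive arrays. The groups did not overlap, and the log2 difference was 2.07 (SE 0.43, 95% interval 1.05 to 3.09), without passing (adjusted p = 0.102).

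**Figure D2:**
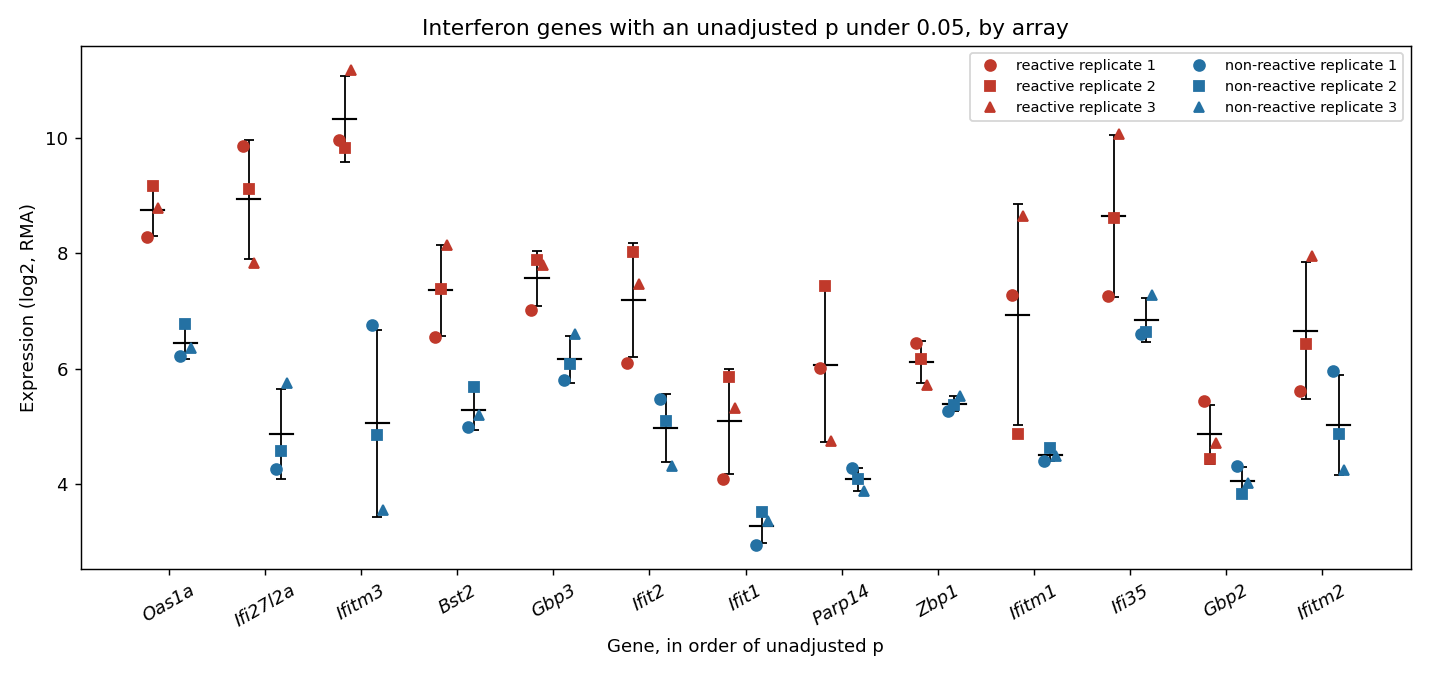
Expression (log2, RMA) of the 13 members with an unadjusted p under 0.05, in each of 3 reactive arrays (red, left) and 3 non-reactive arrays (blue, right); symbols mark replicate numbers, and black lines the mean and SD. Ifitm3, Ifi27l2a and Oas1a show the widest gaps relative to their spread, while Ifi35 and Ifitm2 overlap.

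The oligoadenylate synthetases make a short nucleotide chain that switches on the RNA-degrading enzyme RNase L. Oas1a measured 8.29, 9.18 and 8.78 in the reactive arrays, against 6.22, 6.78 and 6.36 in the non-reactive arrays (log2). The arrays within each group lay close together and the groups were well separated. Its log2 fold change was 2.30 (SE 0.29, 95% interval 1.60 to 3.00), with the smallest adjusted p of the members (0.0352). Oas1a lies in a cluster of related genes, and how far its probe set also reads its neighbours is unknown. Oas2 differed by 0.44 (SE 0.32) and Oasl2, an oligoadenylate synthetase-like protein, by 0.70 (SE 0.41), and the groups overlapped in both. Outside the members, Oas3 differed by 0.04, Oas1b by 0.17, Oas1c by 0.07 and Oasl1 by 0.50, without passing. Of the 7 measured genes of this family named here, only Oas1a passed.

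The Ifit proteins bind RNA and block its translation, and their genes lie in 1 cluster on chromosome 19. Ifit2 measured 6.10, 8.02 and 7.47 in the reactive arrays, against 5.48, 5.10 and 4.32 in the non-reactive arrays. Ifit1 measured 4.08, 5.85 and 5.31 in the reactive arrays, against 2.93, 3.52 and 3.36 in the non-reactive arrays. In both genes the groups were separate and reactive replicate 1 was the lowest reactive array. The log2 differences were 2.23 (SE 0.54, adjusted p = 0.146) for Ifit2 and 1.81 (SE 0.46, adjusted p = 0.164) for Ifit1, and neither passed. The non-reactive mean of Ifit1, 3.27, was under 4.74, which is the median of the probe set means. Ifit3 ran the other way, with 6.09, 6.54 and 6.29 in the reactive arrays and 7.01, 6.52 and 6.45 in the non-reactive arrays. Its groups overlapped, and the log2 difference was -0.36 (SE 0.24, 95% interval -0.94 to 0.23, adjusted p = 0.567). Of its neighbours outside the members, Ifit1bl1 differed by 0.40 (SE 0.34) and Ifit1bl2 by 0.05 (SE 0.20).

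The Mx proteins are dynamin-like GTPases that trap viral components. Mx1 averaged 3.55 ± 0.35 for reactive and 3.28 ± 0.12 for non-reactive arrays, and Mx2 averaged 5.03 ± 0.16 for reactive and 4.76 ± 0.34 for non-reactive arrays (SD, n = 3 each). Their log2 differences of 0.26 (95% interval -0.31 to 0.83) and 0.27 (95% interval -0.30 to 0.85) did not pass. Both intervals end below a log2 difference of 1. Mx1 was under 4.74, the median of the probe set means, in both groups, as were Oasl2, Usp18 and Iigp1, so their values lie near the dim end of the arrays.

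The guanylate-binding proteins and the immunity-related GTPase Iigp1 attack the vacuoles of intracellular pathogens and respond mainly to interferon gamma. Gbp3 measured 7.02, 7.89 and 7.80 in the reactive arrays, against 5.80, 6.08 and 6.60 in the non-reactive arrays. Gbp2, a gene often used as a marker of reactive astrocytes, measured 5.43, 4.43 and 4.70 in the reactive arrays, against 4.31, 3.83 and 4.01 in the non-reactive arrays. Neither gene's groups overlapped, although the margin in Gbp2 was narrow. Their log2 differences were 1.41 (SE 0.33, adjusted p = 0.134) for Gbp3 and 0.81 (SE 0.31, adjusted p = 0.341) for Gbp2, and neither passed. The other probe set of Gbp2 differed by 1.10 (SE 0.21, adjusted p = 0.0872). Its means, 4.66 for reactive and 3.56 for non-reactive arrays, were both under 4.74, the median of the probe set means. The chosen probe set averaged 4.86 for reactive and 4.05 for non-reactive arrays, so only its non-reactive mean was under that median. Iigp1 differed by 0.51 (SE 0.27) with overlapping groups, and its group means, 4.26 for reactive and 3.74 for non-reactive arrays, were both under that median of 4.74.

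Ifi27l2a measured 9.87, 9.12 and 7.83 in the reactive arrays, against 4.26, 4.57 and 5.76 in the non-reactive arrays (log2). The lowest reactive array was still more than 2 log2 units above the highest non-reactive one, and reactive replicate 3, the highest for Ifitm3, was here the lowest. The non-reactive mean of Ifi27l2a, 4.86, lay near 4.74, the median of the probe set means, and non-reactive replicates 1 and 2 were under that median. Its log2 fold change was 4.08 (SE 0.60, 95% interval 2.63 to 5.52, limma adjusted p = 0.0465). Parp14, an ADP-ribosyltransferase, measured 6.02, 7.43 and 4.74 in the reactive arrays, against 4.28, 4.08 and 3.88 in the non-reactive arrays. Its reactive arrays were widely spread, and the log2 difference of 1.99 (SE 0.63) did not pass (adjusted p = 0.26). The other Parp14 probe set differed by -0.02 (SE 0.22). Ifi35, an interferon-induced leucine zipper protein, measured 7.26, 8.61 and 10.08 in the reactive arrays, against 6.61, 6.64 and 7.28 in the non-reactive arrays. Its groups met at reactive replicate 1, and the log2 difference of 1.81 (SE 0.67) did not pass (adjusted p = 0.329). Its other probe sets differed by 1.02 and 0.72. The sizes for Parp14 and Ifi35 therefore depended on the probe set, by more than 1.5 times.

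The other members of this kind did not pass. Rsad2, which encodes the antiviral enzyme viperin, averaged 7.09 ± 1.01 for reactive and 7.10 ± 1.08 for non-reactive arrays (SD, n = 3 each). Its log2 difference of -0.01 had a 95% interval of -1.65 to 1.63, so these arrays bound its change only loosely. Its other probe sets differed by -0.92 (SE 0.62) and -0.13 (SE 0.23). Rtp4, a chaperone of receptor transport, differed by 0.23 (SE 0.66), and Xaf1, a proapoptotic interferon target, by 0.57 (SE 0.57). The other Xaf1 probe set differed by 0.60 (SE 0.21, limma adjusted p = 0.294), with every reactive array above every non-reactive one. Its means, 3.94 for reactive and 3.34 for non-reactive arrays, were under 4.74, the median of the probe set means. Usp18, which removes Isg15 from proteins and dampens the type I receptor, measured 3.54, 3.41 and 7.05 in the reactive arrays, against 3.07, 3.95 and 3.63 in the non-reactive arrays. A single array, reactive replicate 3, stood out, and the log2 difference of 1.12 (SE 0.96) became -0.07 without it.

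Among the nucleic acid sensors, Zbp1, which binds Z-form nucleic acid and can trigger necroptosis, measured 6.45, 6.16 and 5.72 in the reactive arrays, against 5.27, 5.37 and 5.53 in the non-reactive arrays. These groups were separate by a small margin, and the log2 difference of 0.72 (SE 0.25) did not pass (adjusted p = 0.292). The other Zbp1 probe set differed by 1.69 (SE 0.39, adjusted p = 0.13). Ifih1, the RNA sensor MDA5, and Ddx58, the RNA sensor RIG-I, differed by -0.13 (SE 0.42) and -0.13 (SE 0.19). The 95% interval of Ddx58 ran from -0.59 to 0.34. Trim25, a ubiquitin ligase that acts with RIG-I, differed by 0.88 (SE 0.59) with overlapping groups.

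None of the 5 transcription factors passed. Irf7, which drives the interferon alpha genes, measured 6.15, 5.42 and 5.44 in the reactive arrays, against 5.04, 5.14 and 5.38 in the non-reactive arrays. The margin between the groups was small, with a log2 difference of 0.48 (SE 0.27). Irf9 differed by 0.41 (SE 0.22), Irf1, an early target of interferon gamma, by 0.64 (SE 0.48) and Stat2 by -0.60 (SE 0.78), all with overlapping groups. Irf8, a factor of the myeloid lineage, measured 6.38, 6.47 and 7.92 in the reactive arrays, against 5.74, 6.52 and 6.30 in the non-reactive arrays. Only reactive replicate 3 lay above the control range, and the log2 difference of 0.73 (SE 0.46) did not pass. The other Irf8 probe set, at 1.62 (SE 0.96), showed the same array apart, with 9.45 there.

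The receptor chains gave no called difference. Ifnar1 averaged 5.82 ± 0.46 for reactive and 6.40 ± 0.72 for non-reactive arrays, Ifnar2 7.23 ± 1.11 for reactive and 7.02 ± 0.16 for non-reactive arrays, and Ifngr1 7.69 ± 1.03 for reactive and 7.60 ± 0.34 for non-reactive arrays (log2, SD, n = 3 each). Their log2 differences were -0.58 (95% interval -1.58 to 0.43), 0.22 (-1.05 to 1.49) and 0.09 (-1.14 to 1.32). The remaining probe set of Ifnar1 differed by 0.40, opposite in sign, and those of Ifnar2 by 0.65 and -0.58.

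**Figure D3:**
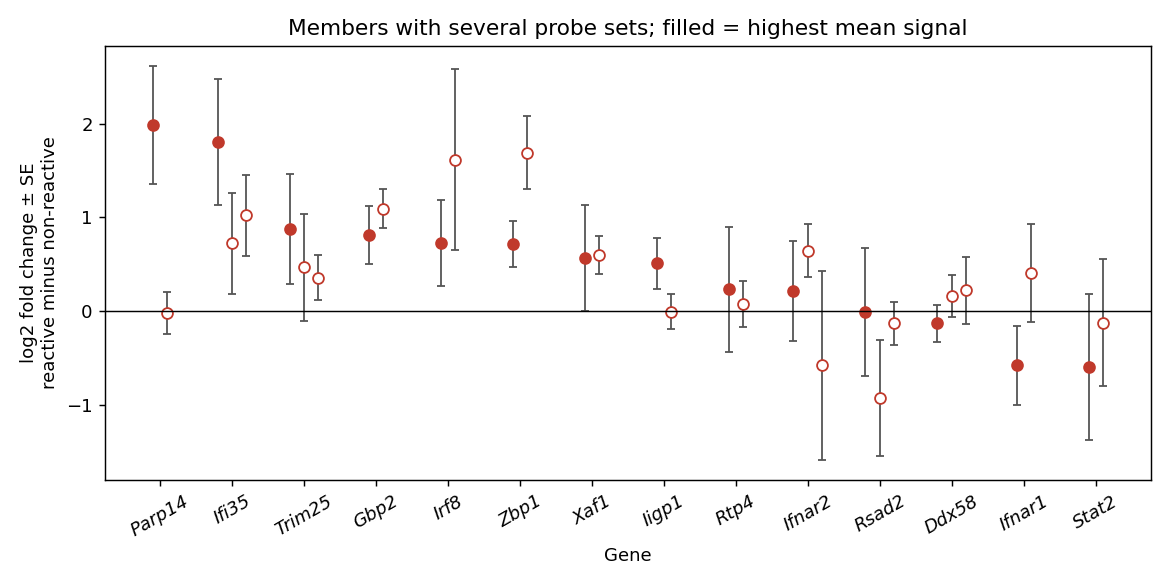
Log2 fold change (reactive minus non-reactive) ± SE of each probe set of the 14 members measured by several; filled points are the probe sets with the highest mean, which represent the gene. Parp14 and Iigp1 have a probe set near 0, and Ddx58, Ifnar1 and Ifnar2 have probe sets on both sides of 0.

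Of the 34 members, 14 were measured by several probe sets, 33 in all. In 9 of these genes all probe sets had 1 sign, and in 5 both signs occurred. No probe set outside the chosen ones passed. The genes that rose, Ifitm3, Ifi27l2a and Oas1a, had 1 probe set each, so no other probe set bears on them.

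The members did not follow 1 order over the reactive arrays. Of the 13 members with an unadjusted p under 0.05, 5 were highest on reactive replicate 3, namely Ifitm1, Ifitm2, Ifitm3, Bst2 and Ifi35. Another 5 were highest on reactive replicate 2, namely Oas1a, Gbp3, Ifit1, Ifit2 and Parp14. The last 3, Ifi27l2a, Zbp1 and Gbp2, were highest on reactive replicate 1. Over all 34 members the counts were 14, 12 and 8 for reactive replicates 3, 2 and 1. The median member stood 0.55, 0.35 and 0.83 log2 units above its own non-reactive mean on reactive replicates 1, 2 and 3, against -0.13, -0.07 and 0.04 on the non-reactive arrays.

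Markers of some other cell types also differed between the groups. Of 20 measured microglia and macrophage markers 7 rose (35%, background 0.39%), namely C1qa, C1qc, Cd14, Cd68, Fcer1g, Trem2 and Tyrobp. All 20 had a log2 fold change above 0, with a median of 1.85, but the sizes were uneven. Cx3cr1 differed by 0.04, Csf1r by 0.42, Itgam by 0.54 and P2ry12 by 0.84, all with overlapping groups. Of 13 blood leukocyte markers 3 rose (23.1%), Plac8, Lyz2 and Cd52. The summed linear signal of the microglia and macrophage list was 30742, 27130 and 41856 on reactive replicates 1, 2 and 3, against 10331 to 10779 on the non-reactive arrays. That of the leukocyte list was 3216, 2613 and 5250 on the reactive arrays, against 334.4 to 505.4 on the non-reactive arrays. Lyz2 and Cd52, the brightest of that list on the reactive arrays with means of 10.96 and 9.96, weigh most in its sum. The leukocyte median log2 fold change was 0.18, and 10 of the 13 lay above 0 (76.9%, background 60.7%). S100a8 differed by 1.40, with every reactive array above every non-reactive one, and S100a9 by 0.71, without passing. The lymphocyte and monocyte markers Cd3d, Cd79a, Cd79b and Ccr2 differed by 0.03, -0.08, -0.15 and -0.03. The summed signal of the 9 endothelial markers was 333.4, 272.2 and 1564 on the reactive arrays, against 232.7 to 338.4 on the non-reactive arrays. It was high on reactive replicate 3 alone. Of 9 oligodendrocyte markers 1 rose, Ermn (11.1%, background 0.39%), but 7 were higher at an unadjusted p under 0.05 (77.8%, background 7.88%). In 6 every reactive array lay above every non-reactive one (66.7%, background 13.5%). The list's median log2 fold change was 1.55, above that of the interferon genes. Cldn11 differed by 3.02 and Opalin by 2.30, while Mbp, the brightest of the list, differed by -0.49. The list sums overlapped, at 24488 to 26004 for reactive arrays, against 19954 to 25277 for non-reactive ones. None of 6 oligodendrocyte precursor markers passed, although all 6 had a log2 fold change above 0, with Gpr17 at 1.73. Their sum was 1392 to 2700 for reactive arrays, against 862.8 to 1312 for non-reactive ones. No neuron, endothelial or pericyte and smooth muscle marker passed, and these sums overlapped between the groups. Of 12 astrocyte markers Gfap rose (background 0.39%) and 4 fell, Sox9, Gjb6, Slc1a3 and Gja1 (background 0.561%). At an unadjusted p under 0.05, 9 were lower (background 7.13%). In 10 every reactive array lay below every non-reactive one (background 8.2%), and the list's median log2 fold change was -1.50. The astrocyte sums were 23324 to 25704 for reactive arrays, against 41524 to 51376 for non-reactive ones. All 12 astrocyte markers had a mean above 4.74 in at least 1 group. Log2 RMA values have no 0, but the means of Itgam among the microglial markers, of S100a9, Cd79b, Ms4a1, Nkg7 and Itgal among the leukocyte markers and of Pecam1, Tek and Cdh5 among the endothelial markers were under 4.74 in both groups. The 3′ minus 5′ difference of control probe sets also moved with the groups, at 4.17 for reactive and 5.19 for non-reactive arrays in Gapdh, and at 3.38 for reactive and 5.05 for non-reactive arrays in Actb. It was 1.44 for reactive and 3.46 for non-reactive arrays in Pcx, and in 18S rRNA it ran the other way, at 0.83 for reactive and -1.15 for non-reactive arrays. The part of these cells and of RNA quality in the interferon genes was not tested, and in sorted pools more cells of a type and more RNA per cell cannot be told apart.

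**Figure D4:**
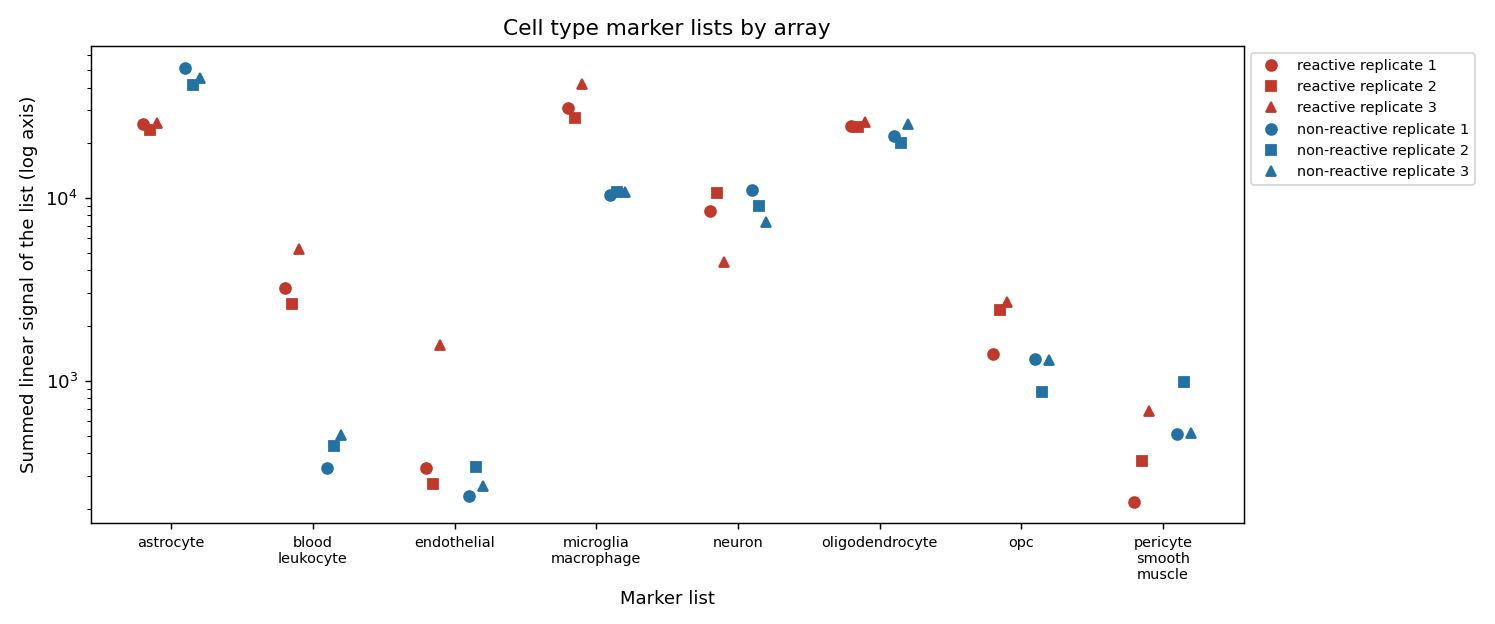
Summed linear signal (2 to the power of the log2 value, log axis) of each cell type marker list on the 3 reactive arrays (red, left) and 3 non-reactive arrays (blue, right). Microglial, leukocyte and oligodendrocyte precursor (opc) sums are higher on every reactive array, endothelial markers are high on reactive replicate 3 alone at 1564, and astrocyte sums are lower on every reactive array.

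Other genes of the pathway, taken from lists written for this comparison, gave no called difference: 0 of 103 measured genes rose and 0 fell, near the background of 0.39% and 0.561%. At an unadjusted p under 0.05, 13 were higher (12.6%, background 7.88%) and 5 lower (background 7.13%). In 22 every reactive array lay above every non-reactive one (21.4%, background 13.5%). Their median log2 fold change was 0.22, against 0.12 over all genes. None of the 10 measured interferon ligands had an unadjusted p under 0.05, and their log2 differences ran from -0.85 to 0.67, with Ifnb1 at 0.67 (SE 0.42) and Ifng at 0.24 (SE 0.21). Of the 7 further receptor and JAK-STAT genes none had one either. Jak1, a kinase of both receptors, differed by -0.85 (SE 0.37), Jak2 by -0.24 and Stat3 by 0.42, while Ifngr2 differed by 0.01.

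**Figure D5:**
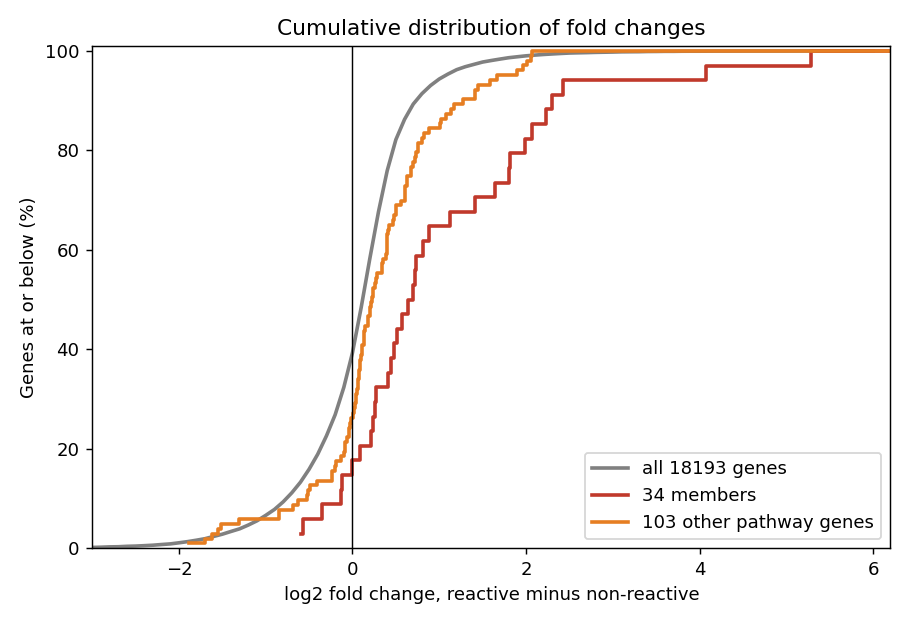
Share of genes (y axis, percent) at or below each log2 fold change (x axis) for the 34 members, 103 other pathway genes and all 18193 genes. The curve of the members lies to the right of the others, with medians of 0.67, 0.22 and 0.12.

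Among 7 genes that restrain the pathway, Socs3, a feedback inhibitor of JAK kinases, measured 10.31, 10.33 and 10.45 in the reactive arrays, against 7.50, 8.81 and 8.57 in the non-reactive arrays. Its reactive arrays lay close together and above all controls, and the log2 difference of 2.07 (SE 0.36) did not pass (adjusted p = 0.0654). Pias1, a SUMO ligase that restrains cytokine signalling, differed by -1.89 (SE 0.30, adjusted p = 0.0531) and the phosphatase gene Ptpn11 by -1.61 (SE 0.29, adjusted p = 0.0732), with every reactive array below every non-reactive one. Socs1 differed by -0.04. Of 13 further sensing genes Tlr3, an endosomal receptor for double-stranded RNA, had the only unadjusted p under 0.05, with a log2 difference of -1.52 (SE 0.50, adjusted p = 0.275). Irf3 differed by 0.40 and Tbk1, the kinase that activates it, by -0.53.

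Of 66 further interferon-stimulated genes, 12 were higher (18.2%, background 7.88%) and 2 lower (background 7.13%) at an unadjusted p under 0.05. In 21 every reactive array lay above every non-reactive one (31.8%, background 13.5%), and 55 lay above 0 (83.3%, background 60.7%). These 2 shares were near those of the members, 35.3% and 82.4%. The median log2 fold change of the 66 genes was 0.40, against 0.67 for the members. Ifi27, a relative of Ifi27l2a, differed by 1.27 (SE 0.24, adjusted p = 0.0802), far less than Ifi27l2a. Psmb10, an immunoproteasome subunit, differed by 1.08 (SE 0.23, adjusted p = 0.108) and Tap2, a peptide transporter subunit for MHC class I, by 0.89 (SE 0.20, adjusted p = 0.119). Daxx, a nuclear histone chaperone, differed by -1.70 (SE 0.28, adjusted p = 0.0571). None of these 66 genes passed.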

How the data were processed

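Expression was measured on 6 arrays. The deposited values are log2 expression made by the authors with RMA, per the submitters' processing notes. Its version and settings were not given in the sources used here. Array medians lay between 4.65 and 4.73. RMA usually equalises the arrays, which hides a change in total RNA. Of 45101 probe sets, 64 controls were left out. The other 45037 entered 1 limma model (version 3.58.1, R 4.3.3; lmFit, then eBayes), reactive minus non-reactive, with no covariate. Two-sided p-values were adjusted by Benjamini-Hochberg over these probe sets and read at 0.05. Printed SEs are moderated, and the number of arrays limits the precision. The annotation gave 34945 probe sets exactly 1 symbol, 932 several and 9160 no symbol. All 34 measured members matched, by gene identifier, the same symbol in a RefSeq table (GRCm38.p6). The array files name no build, and coordinates belong to the RefSeq windows.

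The members and gene lists were chosen with earlier results of these data known. Values per array were given for members with an unadjusted p under 0.05. Of each other list, genes past the threshold, up to 4 with the smallest p and up to 2 with the highest mean could be named. Other relatives of members (further Ifitm, Oas and Ifit genes, Ifnb1, Ifng, Ifngr2, Socs1, Jak1), single markers and Ifit3, Usp18, Irf7 and Irf8 by array were chosen after their values were seen. The fit was tested on simulated data. Alternatives were another quantile normalization, median centring, removal of dim or of _x_at and _s_at probe sets, averaging each gene's probe sets, eBayes with trend or robust, a replicate block and leaving out each array.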

Additional observations from a re-analysis of the deposited data

How the results depend on the processing

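The count of 3 members that rose was 3 with another quantile normalization, without probe sets of mean below the median (28 members left), with averaging each gene's probe sets and with eBayes with trend. It was 2 with median centring and without _x_at and _s_at probe sets, 1 with eBayes robust and 0 with the replicate block. Leaving out each array in turn gave 0 to 1, where 9 to 12 members were higher at an unadjusted p under 0.05, and in those fits fewer arrays were used. Ifi27l2a was the 1 that passed without reactive replicate 3, and none passed without any other array. Over the 14 alternatives the limma adjusted p ran from 0.0235 to 0.121 for Oas1a (called in 7), from 0.0344 to 0.171 for Ifi27l2a (called in 7) and from 0.0363 to 0.179 for Ifitm3 (called in 4). Their log2 fold changes stayed between 2.08 and 2.53, 3.61 and 4.63, and 4.53 and 6.14. No member fell under any of these alternatives. The median log2 fold change of the members ran from 0.54 to 0.73 over leaving out each array. Among all genes the 173 called became 0 with the replicate block and 0 to 77 without 1 array. Same-numbered arrays did not deviate together (r = -0.073, -0.107 and 0.037), and 0 of 3 reactive arrays correlated best with the non-reactive array of its own number. Among other pathway genes, 1 was higher (Ifi27) and 1 lower (Daxx) with averaging each gene's probe sets. Pias1 alone was lower, a count of 1, with another quantile normalization and without dim probe sets, and Ptpn11 alone, a count of 1, without reactive replicate 3. Leaving out each array otherwise gave 0. The causes of these shifts were not tested. Of 470 values of single members under an alternative, 432 kept sign and call, 24 lost the call and 14 changed sign in members that had not passed.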

Other observations

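Some differences moved with 1 array. Without reactive replicate 3, the log2 difference of Ifitm1 was 1.57 in place of 2.43, that of Ifi35 1.09 in place of 1.81, that of Ifitm2 1.00 in place of 1.64, that of Irf1 0.19 in place of 0.64 and that of Irf8 0.23 in place of 0.73. Others grew without that array. Ifi27l2a differed by 4.63 in place of 4.08, Parp14 by 2.65 in place of 1.99 and Xaf1 by 1.17 in place of 0.57. The median log2 fold change of the members was 0.66 in place of 0.67. Reactive replicate 3 had the highest summed microglial, leukocyte, endothelial, oligodendrocyte and oligodendrocyte precursor marker signals of the series. It had the lowest summed neuron signal. Without reactive replicate 2, Parp14 differed by 1.30 in place of 1.99 and Ifitm1 by 3.46. The folds of Oas1a, Ifi27l2a, Ifit2, Ifit1 and Gbp3 stayed within 1.5 times of their values whichever array was left out, and that of Ifitm3 did not. These genes were chosen after their values were seen, and the part of the marker signals was not tested.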
